A study of Homo sapiens with 40 samples.

Results

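The response to topotecan (Tpc) was compared between wild-type (WT) HEK293A cells and PARP1-knockout (PARP1-KO) HEK293A cells, gene by gene, in 16 of the 40 RNA sequencing libraries of the study. The 16 libraries were chosen by their labels as those of untreated and Tpc-treated cells. They comprised 4 groups of 4 libraries: untreated WT, WT with 100 nM Tpc, untreated PARP1-KO and PARP1-KO with 50 nM Tpc. The quantity tested was the interaction, which is the log2 fold change of Tpc-treated against untreated PARP1-KO cells minus the same fold change in WT cells. A negative interaction therefore means a lower log2 response in PARP1-KO than in WT cells. Because each genotype received its own Tpc dose, genotype and dose cannot be told apart in any interaction below. HEK293A cells derive from human embryonic kidney and attach as a flat layer. The PARP1-KO cells were 1 clone made with CRISPR/Cas9 and a pair of guide RNAs, which the labels also call a knockdown. Differences between this clone and other clones cannot be told apart from the loss of PARP1. Tpc was given for 5 to 5.5 h together with 0.1% DMSO, whereas the untreated cells received neither, so Tpc cannot be told apart from its solvent in the main comparison. For that reason the cells with 0.1% DMSO alone were also used as comparator.

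Topoisomerase 1 (TOP1) nicks and reseals DNA to release the torsion that builds up in front of RNA and DNA polymerases, and Tpc holds the enzyme on the nicked strand. Polymerases that run into the trapped enzyme stall, and replication forks that do so leave broken DNA. PARP1 binds DNA breaks and attaches chains of ADP-ribose to itself and to other proteins, which brings in repair factors including TDP1, the enzyme that removes TOP1 remnants from DNA. Signals from broken DNA are also known to reach the transcription factor NF-κB, which drives chemokine genes together with its own inhibitors, and PARP1 has been described as a partner of NF-κB at promoters.

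The authors deposited raw read counts per gene. The 16 libraries held between 6300822 and 20379777 counts on genes, and their median was 11258154.5. Levels are given below as CPM, that is, counts after TMM normalization for library size. CPM values are not divided by gene length, so they were compared between libraries and not between genes. At a common depth between 15929 and 23414 genes were detected per library. Of the 16 libraries 5 stood apart with fewer than 19000 genes, namely untreated WT replicates 1 and 3, Tpc-treated WT replicate 2, untreated PARP1-KO replicate 1 and Tpc-treated PARP1-KO replicate 1. Results that rest on counts of called genes are therefore also given without these libraries, an alternative chosen after seeing the data. Mitochondrial transcripts took between 3.96% and 4.95% of the counts in PARP1-KO libraries and between 6.12% and 7.54% in WT libraries. The summed level of 7 genes known from HEK293 cells, such as KRT8, VIM and NEFL, was between 1724 and 2556 CPM. The summed levels of the marker lists for fibroblasts, blood cells and endothelial cells reached at most 53.4, 10.1 and 9.48 CPM, and COL1A2, CD68 and HBB had fewer than 10 counts in all 16 libraries together. The labels call the replicates biological and the study's methods call them technical, so the p-values may measure technical spread alone. In bulk RNA, fewer cells that express a gene and less RNA of it per cell cannot be told apart.

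The targeted gene was checked first. PARP1 (ENSG00000143799, hg38 chromosome 1, 226360210 to 226408154) was read at 777.8, 874.9, 849.8 and 827.6 CPM in untreated WT replicates 1 to 4. It was read at 43.8, 34.3, 33.1 and 33.9 CPM in untreated PARP1-KO replicates 1 to 4. The groups were far apart, and every library fitted its label. With Tpc, WT cells had a mean of 781.1 ± 16.5 CPM and PARP1-KO cells one of 41.3 ± 5.33 CPM (SD, n = 4 each). The interaction of PARP1 itself was 0.29 on the log2 scale, with a 95% interval from -0.02 to 0.60, and did not pass the threshold (adjusted p = 0.74, edgeR). TOP1, the target of Tpc, had an interaction of 0.01 (95% interval -0.30 to 0.31), and TDP1 one of -0.07 (95% interval -0.83 to 0.70), so differences larger than these bounds were outside the intervals for both genes.

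The interaction was called for 25 of 25207 genes tested (0.0992%) at an adjusted p under 0.01 with the quasi-likelihood test of edgeR, while 1789 genes (7.1%) had an unadjusted p under 0.05. For 22 genes (0.0873%) the log2 response was lower in PARP1-KO cells, and for 3 genes (0.0119%) it was higher. The 3 became 1 without untreated PARP1-KO replicate 3 or 4 and 5 without untreated WT replicate 1 or 4. The 22 genes included chemokines, subunits and feedback inhibitors of NF-κB, and transcription factors of the AP-1 family, beside genes of other kinds. They were CXCL10, CXCL8, CD69, CCL20, TNFAIP3, PTX3, TNFRSF9, TCIM, ATF3, RELB, NFKBIA, NFKB1, IER3, PPP1R15A, NFKB2, JUN, JUNB, CREB5, ANKRD1, GADD45A, SDC4 and DUSP1. The other 3 were KIF20A, HMMR and CDC20, whose products act in mitosis. Of these genes PPP1R15A, NFKB2, CREB5 and ANKRD1 fell outside the rule for named genes and were named after their values were seen.

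All 22 genes with a negative interaction were called higher with Tpc in WT cells, with log2 responses from 0.77 to 5.45 and a median of 1.56. In PARP1-KO cells their responses ranged from -0.94 to 0.40 with a median of 0.05. None of the 25 genes was called in PARP1-KO cells by edgeR or by DESeq2, and 3 of them (CREB5, KIF20A and CDC20) had an unadjusted p under 0.05 there (edgeR). Over all genes tested edgeR called 0.0317% in PARP1-KO cells, and 5.99% had such a p. Both responses enter the interaction that chose these genes, so a large WT and a small PARP1-KO response are partly built in. In the plot of both responses these genes lie along the horizontal axis.

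**Figure D1:**
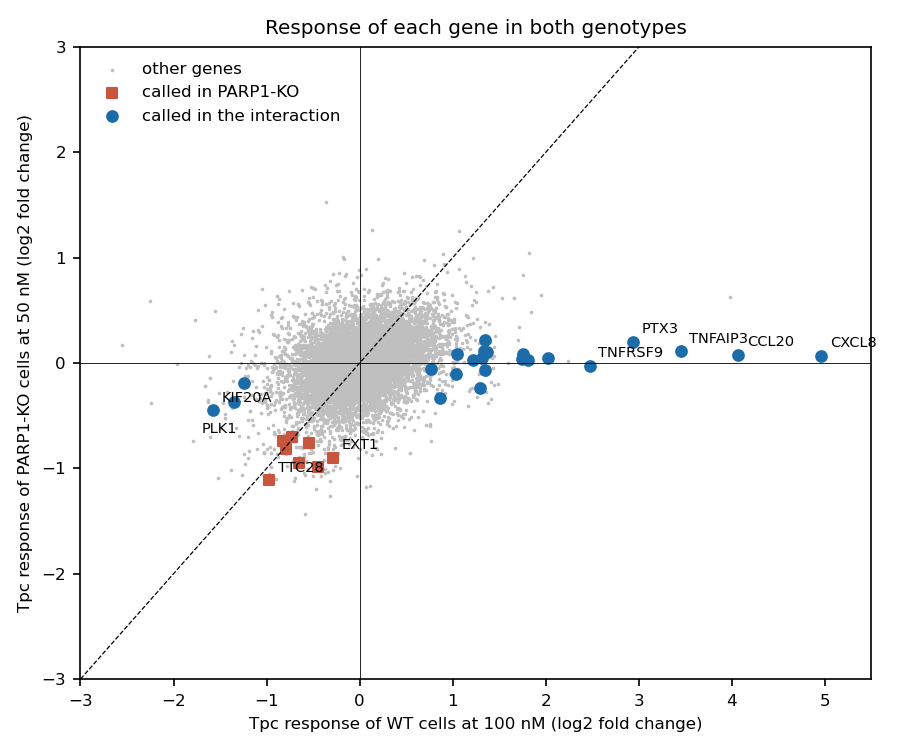
Log2 response to Tpc in WT cells (horizontal axis, 100 nM) and in PARP1-KO cells (vertical axis, 50 nM) for the 12221 genes with a mean of at least 50 counts. Blue circles are genes called in the interaction (CXCL10 and CD69 are below this mean and not drawn), red squares are the 8 genes called in PARP1-KO cells, and the dashed line marks equal responses. CXCL8 lies at 4.96 in WT and 0.07 in PARP1-KO cells.

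Among the chemokines, CXCL8 (ENSG00000169429), which attracts neutrophils, was read at 12.1, 15.5, 6.03 and 10.8 CPM in untreated WT replicates 1 to 4 and at 289.0, 437.4, 343.5 and 327.8 CPM with Tpc. In PARP1-KO cells it was read at 38.0, 37.3, 35.4 and 34.3 CPM untreated and at 44.1, 32.4, 39.0 and 36.7 CPM with Tpc. The WT groups were separated by a wide gap, while the PARP1-KO groups overlapped and lay above untreated and below Tpc-treated WT cells. Its log2 response was 4.96 ± 0.19 (SE) in WT and 0.07 ± 0.16 in PARP1-KO cells, and its interaction was -4.89 ± 0.25 (adjusted p = 1.6e-15, edgeR).

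CCL20 (ENSG00000115009), which attracts dendritic cells and lymphocytes, followed the same order. Untreated WT libraries held 6.07, 2.57, 5.06 and 3.20 CPM and Tpc-treated ones 63.8, 101.4, 65.3 and 57.4 CPM. PARP1-KO libraries held 15.6, 11.0, 10.6 and 10.5 CPM untreated and 15.998, 9.61, 13.971 and 10.4 CPM with Tpc. The PARP1-KO groups overlapped here too, and the interaction was -3.99 ± 0.34 (adjusted p = 2.5e-09, edgeR). CXCL10, which attracts T cells, was close to the floor of the counts outside Tpc-treated WT cells, where it held 11.0, 8.74, 8.70 and 8.33 CPM. The other 12 libraries held between 0 and 0.898 CPM. Its interaction of -6.39 ± 1.17 (adjusted p = 0.0055, edgeR) therefore depends on the prior count of the fit. The same holds for CD69, a lectin of activated lymphocytes, with 10.2 to 15.3 CPM in Tpc-treated WT libraries and 0 to 0.493 CPM in untreated ones. CD69 held 0.156 to 3.00 CPM in untreated and 1.07 to 3.52 CPM in Tpc-treated PARP1-KO libraries.

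The feedback inhibitors of NF-κB behaved like the chemokines. TNFAIP3 (ENSG00000118503), which encodes the ubiquitin-editing enzyme A20, was read at 16.2, 12.964, 8.56 and 19.3 CPM in untreated WT libraries and at 163.6, 127.5, 156.4 and 176.8 CPM with Tpc. In PARP1-KO libraries it was read at 50.5, 49.6, 44.6 and 49.2 CPM untreated and at 54.1, 54.4, 52.5 and 48.8 CPM with Tpc. The last of these values overlapped the untreated group, and the interaction was -3.34 ± 0.23 (adjusted p = 1e-11, edgeR). NFKBIA (ENSG00000100906), which encodes IκBα and holds NF-κB in the cytoplasm, had an interaction of -1.68 ± 0.17 (adjusted p = 1.4e-07, edgeR). It was read at 45.0 to 55.5 CPM in untreated and 151.4 to 186.1 CPM in Tpc-treated WT libraries, against 71.7 to 85.1 CPM and 73.9 to 88.5 CPM in PARP1-KO libraries.

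The genes of the NF-κB subunits were part of the same group. NFKB1, NFKB2 and RELB, which encode p105/p50, p100/p52 and RelB, had interactions of -1.53 ± 0.23, -1.26 ± 0.20 and -1.71 ± 0.26. NFKB1 was the subunit gene that was not higher in untreated PARP1-KO cells, with 28.1 to 34.4 CPM against 23.8 to 45.2 CPM in WT libraries. It reached 84.5 to 97.969 CPM in WT cells with Tpc and 22.4 to 30.3 CPM in PARP1-KO cells with Tpc.

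The sequence before the start of these genes is shown for the chemokines and inhibitors whose values were given in full, because NF-κB is known to bind short sites of the kind searched for. The sequences are the RefSeq reference (GRCh38.p14), 150 bases before the annotated start, 5′ to 3′ on the strand of the gene, and capitals mark matches to GGAANNNCC on either strand. 
CXCL8 (chr4:73740419-73740568, plus strand): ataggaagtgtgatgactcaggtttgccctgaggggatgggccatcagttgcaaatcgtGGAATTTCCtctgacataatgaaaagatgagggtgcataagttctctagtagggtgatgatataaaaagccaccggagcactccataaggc
CCL20 (chr2:227813692-227813841, plus strand): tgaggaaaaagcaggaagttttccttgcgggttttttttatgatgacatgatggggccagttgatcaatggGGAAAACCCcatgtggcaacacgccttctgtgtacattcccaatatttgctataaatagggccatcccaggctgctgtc
TNFAIP3 (chr6:137867109-137867258, plus strand): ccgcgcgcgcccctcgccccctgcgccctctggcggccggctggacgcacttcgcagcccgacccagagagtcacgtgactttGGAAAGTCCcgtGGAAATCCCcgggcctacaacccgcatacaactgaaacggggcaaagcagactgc
NFKBIA (chr14:35404750-35404899, minus strand): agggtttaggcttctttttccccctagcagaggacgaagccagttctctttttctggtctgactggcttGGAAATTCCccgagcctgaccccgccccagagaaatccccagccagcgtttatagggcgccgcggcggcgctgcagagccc

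In windows from 250 bases before to 50 bases after the start, GGAANNNCC occurred in 11 of the 17 promoters that were matched among the 22 genes (64.7%). It occurred in 20.1% of all 27305 promoters and in 23.1% of the 9740 promoters of genes with a mean of at least 50 counts. The letters were chosen after these promoters had been read, so the share is a description without a test. The 11 genes were ANKRD1, CCL20, CXCL10, CXCL8, NFKB1, NFKBIA, PPP1R15A, PTX3, SDC4, TNFAIP3 and TNFRSF9. CD69, GADD45A, IER3, RELB and TCIM were not matched.

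**Figure D2:**
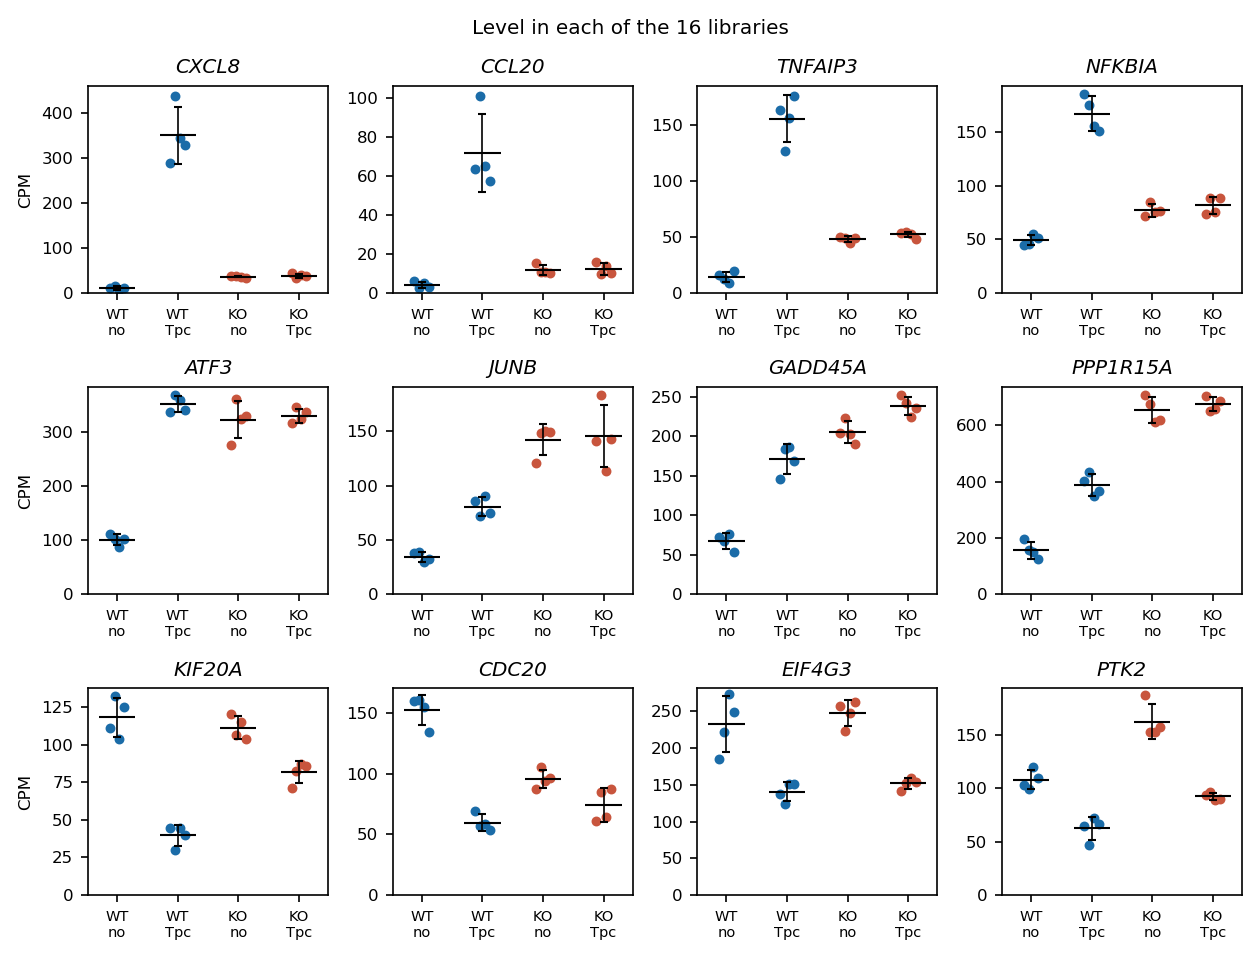
CPM of 12 genes in each library (points, n = 4 per group; horizontal bar, mean; error bar, SD), for untreated (no) and Tpc-treated WT and PARP1-KO cells, each panel with a linear axis from 0. CXCL8, CCL20, TNFAIP3 and NFKBIA stayed within the untreated range or near it in PARP1-KO cells, ATF3 to PPP1R15A were high in both PARP1-KO groups, and the last 2 panels show genes that were lower with Tpc in both genotypes.

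For ATF3, JUN, IER3, CREB5 and TCIM the range of untreated PARP1-KO libraries overlapped that of Tpc-treated WT libraries. ATF3, a transcription factor of stress responses, was read at 111.4, 102.8, 87.1 and 102.2 CPM in untreated WT libraries and at 338.5, 370.2, 360.3 and 341.6 CPM with Tpc. PARP1-KO libraries held 277.1, 361.7, 325.6 and 330.7 CPM untreated and 317.1, 346.3, 324.3 and 337.5 CPM with Tpc. The Tpc-treated groups of both genotypes overlapped, and its interaction of -1.77 ± 0.15 (adjusted p = 1.4e-09, edgeR) goes together with an untreated level that differed between the genotypes. Of the untreated PARP1-KO libraries 3 lay below all Tpc-treated WT libraries. JUN, IER3, CREB5 and TCIM also overlapped between the Tpc-treated groups.

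For 4 genes every Tpc-treated PARP1-KO library was above every Tpc-treated WT library, and these were GADD45A, DUSP1, JUNB and PPP1R15A. How many of all genes were separated in this way was not counted, so the count of 4 is a description only. PPP1R15A, which encodes the GADD34 subunit that resumes translation after stress, was read at 196.7, 155.6, 148.3 and 123.3 CPM in untreated WT libraries and at 401.0, 434.2, 348.5 and 366.3 CPM with Tpc. PARP1-KO libraries held 707.1, 677.2, 612.1 and 617.4 CPM untreated and 705.3, 650.4, 657.8 and 686.6 CPM with Tpc. Neither PARP1-KO group reached down to the WT levels, and its interaction was -1.27 ± 0.16 (adjusted p = 1.1e-05, edgeR). JUNB, an AP-1 subunit, held 71.9 to 90.2 CPM in Tpc-treated WT and 113.9 to 183.3 CPM in Tpc-treated PARP1-KO libraries. Its untreated levels were 29.1 to 38.891 CPM in WT and 121.3 to 150.8 CPM in PARP1-KO cells. GADD45A, a p53 and stress target that restrains the cell cycle, was the one of these 4 genes whose PARP1-KO groups did not overlap, with 189.5 to 223.4 CPM untreated and 223.6 to 252.2 CPM with Tpc. Its PARP1-KO response of 0.22 ± 0.11 did not pass the threshold (adjusted p = 0.89, edgeR).

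For the remaining 13 genes, among them CXCL8, CCL20, TNFAIP3, PTX3, TNFRSF9, NFKB1 and SDC4, every Tpc-treated PARP1-KO library was below every Tpc-treated WT library. The share of all genes with such a separation in either direction was not counted, and without treatment 13.1% of all genes were called between the genotypes. The Tpc-treated libraries also enter the interaction that chose these genes, so the separations are a description only. PTX3, a secreted pattern recognition protein, held 49.1 to 62.2 CPM in Tpc-treated WT and 21.98 to 24.965 CPM in Tpc-treated PARP1-KO libraries. TNFRSF9, the receptor 4-1BB, held 55.3 to 79.9 CPM and 18.4 to 27.2 CPM in the same groups. SDC4, a heparan sulfate proteoglycan, was lower in PARP1-KO cells in both states, with 106.6 to 130.5 CPM untreated and 116.3 to 141.7 CPM with Tpc, against 149.1 to 195.3 CPM and 351.7 to 388.8 CPM in WT cells.

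The level without Tpc was also examined in libraries that do not enter the interaction of the 16 libraries, those of cells given DMSO alone. With DMSO, 16 of the 22 genes were called higher in PARP1-KO than in WT cells and 0 lower, whereas 1623 of 24989 genes (6.49%) were called higher overall. In the untreated libraries, which are shared with the interaction, 18 of the 22 were called higher and 2 lower, where 6.93% of all genes were called higher and 6.17% lower. The log2 difference with DMSO was 2.28 for TNFAIP3, 2.20 for PPP1R15A, 1.90 for ATF3 and 1.21 for CXCL8. NFKB1, at -0.61 with DMSO, had an adjusted p of 0.010 with edgeR, just outside the threshold.

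The gene lists of the NF-κB pathway are given with the called genes included in every count and median. These lists and those below were compiled with earlier results of these data known, so their values are a description without a test. Of 25 genes for NF-κB subunits and feedback inhibitors, 6 were called higher in WT cells and 5 were called with a negative interaction. Over all genes tested these shares were 0.603% and 0.0873%. The interaction was below 0 for 23 of the 25 genes, 11 of them at an unadjusted p under 0.05 (edgeR). Of all 25207 genes 13144 were below 0, and 981 were so at such a p. The same values for all genes stand beside the counts of the next 3 lists. The median log2 response of the 25 genes in WT was 0.47, against -0.00 in PARP1-KO, beside 0.00 and -0.01 over all genes tested. Of 22 chemokine and cytokine genes tested, 6 were called higher in WT cells and 3 were called with a negative interaction. The interaction was below 0 for 18 of the 22 genes, 11 of them at an unadjusted p under 0.05 (edgeR). The medians of this list were 0.80 (WT) and 0.06 (PARP1-KO). Among 19 surface proteins and enzymes induced through NF-κB, 6 were called higher in WT cells. Called with a negative interaction were 4 of them (TNFRSF9, IER3, SDC4 and CD69). The interaction was below 0 for 17 of the 19 genes, 14 of them at an unadjusted p under 0.05 (edgeR). The medians were 1.04 (WT) and -0.07 (PARP1-KO).

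AP-1 and immediate early genes encode transcription factors and phosphatases that are switched on within minutes of a stimulus. Of 30 such genes, 11 were called higher in WT cells and 4 were called with a negative interaction (ATF3, JUN, JUNB and DUSP1). The interaction was below 0 for 27 of the 30 genes, 14 of them at an unadjusted p under 0.05 (edgeR). The medians of this list were 0.77 (WT) and 0.08 (PARP1-KO). Over these 4 lists, 16 of the 22 genes called with a negative interaction were members, where the lists held 96 of all 25207 genes tested. No member of the 4 lists was called in PARP1-KO cells by edgeR or DESeq2, where edgeR called 0.0317% of all genes tested. Of the 96 members tested 4 were higher and 1 was lower there at an unadjusted p under 0.05 (edgeR), beside 699 and 810 of all 25207 genes. These counts are near those of any genes and are no result about the lists.

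The genes of the G2/M phase and mitosis moved the other way. KIF20A, a kinesin of the midzone in dividing cells, was read at 111.3, 132.5, 103.7 and 125.1 CPM in untreated WT libraries and at 44.7, 29.8, 44.4 and 39.6 CPM with Tpc. In PARP1-KO libraries it was read at 120.3, 106.3, 115.007 and 103.6 CPM untreated and at 70.9, 82.3, 87.1 and 85.9 CPM with Tpc. All 4 Tpc-treated PARP1-KO libraries lay below the untreated ones and above all Tpc-treated WT libraries. Its response was -1.58 ± 0.14 in WT and -0.45 ± 0.13 in PARP1-KO cells, and its interaction was 1.13 ± 0.19 (adjusted p = 0.0011, edgeR). The PARP1-KO response did not pass the threshold (adjusted p = 0.38).

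HMMR, which organizes spindle microtubules, had 101.8 to 108.0 CPM in untreated and 42.3 to 47.8 CPM in Tpc-treated WT libraries. Its PARP1-KO groups overlapped, with 96.4 to 129.7 CPM untreated and 79.3 to 110.8 CPM with Tpc. CDC20, the activator of the anaphase-promoting complex, had 134.6 to 161.0 CPM in untreated and 53.9 to 69.6 CPM in Tpc-treated WT libraries. Its PARP1-KO groups also overlapped, at 87.2 to 105.8 CPM and 60.7 to 87.6 CPM. The interactions were 1.05 ± 0.18 for HMMR and 0.98 ± 0.18 for CDC20 (adjusted p = 0.0016 and 0.0074, edgeR). Untreated CDC20 differed between the genotypes, with a log2 difference of -0.67 ± 0.13 in PARP1-KO cells.

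Of 48 G2/M and mitosis genes, edgeR called 22 lower in WT cells and 3 with a positive interaction. Over all genes tested these shares were 0.357% and 0.0119%. DESeq2 called 30 and 12 members of the list in these 2 respects, beside 234 and 16 of all genes. None was called in PARP1-KO cells by edgeR, where 0.0317% of all genes tested were called. There 15 had an unadjusted p under 0.05 and a lower level (edgeR), beside 810 of all 25207 genes, and DESeq2 called PLK1 and AURKA lower. All 48 were below 0 in WT and 44 were below 0 in PARP1-KO cells, with medians of -0.59 and -0.20. The interaction was above 0 for 47 of the 48 genes, with 25 at an unadjusted p under 0.05, where 808 of all genes tested were at such a p and above 0. PLK1, a kinase that drives entry into mitosis, missed the threshold of edgeR for the interaction and for the PARP1-KO response. It was read at 102.2 to 141.8 CPM in untreated and 24.7 to 42.5 CPM in Tpc-treated WT libraries, and at 79.4 to 91.0 CPM and 49.7 to 52.4 CPM in PARP1-KO libraries. Its interaction was 1.05 ± 0.20 (adjusted p = 0.012) and its PARP1-KO response -0.74 ± 0.14 (adjusted p = 0.021, edgeR). DESeq2 called PLK1 in both. PSRC1, a spindle protein, and PIF1, a DNA helicase, were among the largest falls in WT cells, at -1.49 ± 0.23 and -2.24 ± 0.48.

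The promoters of CDC20 and HMMR are shown because they hold the CHR element, TTTGAA, through which the DREAM and B-MYB complexes are known to time G2/M genes. The sequences are again the RefSeq reference (GRCh38.p14), 150 bases before the start on the strand of the gene, with TTTGAA on either strand in capitals. 
CDC20 (chr1:43358831-43358980, plus strand): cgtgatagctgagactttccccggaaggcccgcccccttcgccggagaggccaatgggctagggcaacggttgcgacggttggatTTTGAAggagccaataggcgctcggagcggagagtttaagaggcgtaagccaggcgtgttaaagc
HMMR (chr5:163460482-163460631, plus strand): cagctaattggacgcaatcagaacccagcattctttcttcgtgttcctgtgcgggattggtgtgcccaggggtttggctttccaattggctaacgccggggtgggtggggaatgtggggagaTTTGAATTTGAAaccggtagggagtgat

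In the windows of 300 bases TTTGAA was found in 27 of the 41 promoters matched for the G2/M list (65.9%), in 15.4% of all promoters and in 9.35% of those with a mean of at least 50 counts. No match was found for KIF20A, which says only that these letters are not in its window. In the 20 promoters matched for called genes, 0 held a match of one motif that overlapped a match of the other, and TTTGAA occurred in 3 of the 17 promoters of the genes with a negative interaction.

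Lists for DNA replication, repair and cell death held few genes called in the interaction, where 0.0992% of all genes tested were called. At that share lists of this size are expected to hold few or none, so the low counts say little about them. In WT cells 0.603% of all genes tested were called higher and 0.357% lower. At an unadjusted p under 0.05 (edgeR) 2181 were higher and 2062 lower there, of 25207. Of 49 G1/S and replication genes, 7 were called higher in WT cells, with medians of 0.22 (WT) and 0.13 (PARP1-KO). None was called in the interaction by edgeR or DESeq2. There 1 had an unadjusted p under 0.05 above 0 and 8 below 0 (edgeR), beside 808 and 981 of all 25207 genes. DTL, which targets replication factors for degradation, was read at 78.4 to 86.9 CPM in untreated and 130.0 to 143.7 CPM in Tpc-treated WT libraries, and at 144.0 to 180.6 CPM and 159.4 to 210.0 CPM in PARP1-KO libraries. Its interaction was -0.51 ± 0.16 (adjusted p = 0.53, edgeR). Of 29 p53 target genes, 2 were called higher in WT cells and GADD45A alone was called in the interaction, while the list medians were close, at 0.17 and 0.09. Of 27 topoisomerase and TOP1 repair genes, 1 was called in WT cells by edgeR, TOP2A, which is also a G2/M gene. DESeq2 called TOP3A higher and TOP2A lower there, and TOP2A alone of this list in the interaction. Of 35 genes for homologous recombination, the Fanconi pathway and checkpoints none was called by edgeR in WT cells, where 12 were higher and 1 lower at an unadjusted p under 0.05, and DESeq2 called RAD54L, RIF1, BARD1 and PALB2 higher. The medians of this list were 0.17 (WT) and 0.08 (PARP1-KO). Of 16 BCL2 family genes, which govern apoptosis, 2 were called higher in WT cells by edgeR and 3 by DESeq2 (MCL1, PMAIP1 and BBC3), with medians of -0.02 and -0.09. TOP2A was read at 994.1 to 1403 CPM in untreated and 560.8 to 717.1 CPM in Tpc-treated WT libraries and at 1120 to 1337 CPM and 920.2 to 1223 CPM in PARP1-KO libraries, with an interaction of 0.71 ± 0.16 (adjusted p = 0.050, edgeR).

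Genes of protein synthesis and energy supply had no called member in either genotype by edgeR. Over all genes tested 0.96% were called in WT and 0.0317% in PARP1-KO cells, so lists of this size are expected to hold few or none. The 79 cytosolic ribosomal protein genes had medians of -0.34 (WT) and -0.10 (PARP1-KO). Of them 67 were lower in WT cells at an unadjusted p under 0.05 and none in PARP1-KO cells (edgeR), beside 2062 and 810 of all 25207 genes. DESeq2 called none of them, but it called ATP5MC2 of oxidative phosphorylation and SEM1 of the proteasome lower in WT cells. The 76 nuclear oxidative phosphorylation genes had medians of -0.31 and -0.10, and the 39 proteasome genes -0.25 and -0.07. The untreated WT libraries with low gene numbers, replicates 1 and 3, were also those with the highest FAU level among the ribosomal genes, at 433.5 and 462.1 CPM against 320.6 and 256.4 CPM in replicates 2 and 4. The median interaction was 0.25 for the ribosomal genes (0.12 without untreated WT replicate 1), 0.20 for the oxidative phosphorylation genes (0.067 without the same library) and 0.18 for the proteasome genes (0.11 without untreated PARP1-KO replicate 1). With offsets for length and GC content the 3 medians were 0.17, 0.12 and 0.11.

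Seen over all genes, fewer genes were called in PARP1-KO than in WT cells. In WT cells 242 genes (0.96%) were called, 152 higher (0.603%) and 90 lower (0.357%), and in PARP1-KO cells 8 genes (0.0317%), all lower, where 1509 genes (5.99%) had an unadjusted p under 0.05. The count of 0 for higher genes in PARP1-KO cells is from edgeR, where 699 genes were higher at an unadjusted p under 0.05, and DESeq2 called 6. Single libraries carried much of these counts. Without untreated WT replicate 4 the WT counts were 357 and 234, and without Tpc-treated WT replicates 1, 3 or 4 they were 80 and 55, 77 and 47, or 80 and 42. The 8 genes became 18, 20 and 13 without untreated WT replicates 1, 3 and 4, and 0 to 4 without any 1 of the PARP1-KO libraries or Tpc-treated WT replicate 1. Over the 12221 genes with a mean of at least 50 counts the log2 responses had an SD of 0.38 (WT) and 0.25 (PARP1-KO). The 2 responses share no library, and over these genes Pearson's r was 0.36 and Spearman's rho 0.36. Genes are not independent replicates, and no test was made.

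The genes called in WT cells were followed in PARP1-KO cells, where 12250 of all 25207 genes were above and 12804 below 0. Of the 152 genes called higher in WT cells, 132 were also above 0 in PARP1-KO cells, with a median of 0.18 against 0.82 in WT cells. Of the 90 genes called lower, 86 were below 0 in PARP1-KO cells, with a median of -0.29 against -0.82 in WT cells. With the DMSO-treated cells as comparator, the share of genes called higher in WT cells that were above 0 in PARP1-KO cells was 58.1% rather than 86.8%, and that of genes called lower that were below 0 was 90.0% rather than 95.6%. The difference between both directions was not tested.

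The numbers of called genes depended strongly on the libraries of low gene number. Without those 5 libraries the untreated WT cells were represented by replicates 2 and 4 alone. The interaction was then called for 63 of 24203 genes (0.26%), 14 with a positive (0.0578%) and 49 with a negative value (0.202%). These 63 held all 25 genes named above, and all 63 had the same sign in the fit of 16 libraries. The libraries kept are part of those 16, so the same sign was largely given and is no separate support. The genes added were named after their values were seen. On the negative side they included the chemokines CXCL1, CXCL2 and CXCL3 at -3.47, -3.60 and -3.87, the cytokine TNF at -3.16, the caspase inhibitor BIRC3 at -1.60 and the adhesion molecule ICAM1 at -1.79. On the positive side they included PLK1, BUB1, CENPE, CCNB1, AURKA, TOP2A and DLGAP5, with values from 0.65 to 1.04. Of the 14 positive genes 10 were members of the G2/M list, and of the 49 negative ones 29 were members of the 4 NF-κB and AP-1 lists. In the fit of 16 libraries these lists held 48 and 96 of all 25207 genes tested. They were compiled with earlier results of these data known, so the counts are a description without a test. In PARP1-KO cells 154 genes (0.636%) were then called, 34 higher (0.14%) and 120 lower (0.496%). They again had the same sign in the fit of 16 libraries, which shares the libraries kept. The count of 8 thus depended on the libraries used and is no measure of how many genes responded. In WT cells 465 genes (1.92%) were then called, 267 higher (1.1%) and 198 lower (0.818%).

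The 8 genes called in PARP1-KO cells were TTC28, SLC22A23, ARID1B, EXT1, PTK2, ROBO1, FAF1 and EIF4G3, and all spanned at least 188089 bp on the genome. EIF4G3, a scaffold of translation initiation, was read at 258.0, 223.5, 247.5 and 262.8 CPM in untreated PARP1-KO libraries and at 142.0, 152.3, 159.9 and 154.0 CPM with Tpc. In WT cells it was read at 185.9, 222.0, 274.4 and 248.8 CPM untreated and at 137.6, 124.6, 150.6 and 151.1 CPM with Tpc. The groups did not overlap in either genotype, and the interaction was 0.02 ± 0.16 (95% interval -0.31 to 0.35).

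PTK2, which encodes the focal adhesion kinase FAK, fell likewise from 186.8, 152.2, 152.7 and 157.6 CPM to 93.8, 96.4, 89.4 and 89.8 CPM in PARP1-KO libraries. In WT libraries the values were 103.2, 99.7, 120.1 and 109.5 CPM untreated and 64.2, 47.1, 72.5 and 66.4 CPM with Tpc. The responses were -0.81 ± 0.12 in PARP1-KO and -0.79 ± 0.13 in WT cells. EXT1, an enzyme of heparan sulfate synthesis, differed most between the genotypes within this group. It held 78.0 to 84.9 CPM untreated and 39.3 to 46.2 CPM with Tpc in PARP1-KO cells and 46.1 to 57.0 CPM and 38.937 to 45.2 CPM in WT cells, with an interaction of -0.62 ± 0.18 (adjusted p = 0.45, edgeR).

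All 8 genes were below 0 in WT cells, 4 of them were called lower there (TTC28, PTK2, FAF1 and EIF4G3), and none was called in the interaction, whose values ran from -0.62 to 0.08. DESeq2 called the same 8 genes lower in PARP1-KO cells and none in the interaction. With DMSO-treated cells as comparator none was called in PARP1-KO cells, although their log2 responses were still -0.95 to -0.57. EIF4G3, FAF1, ROBO1 and PTK2 fell outside the rule for named genes. Of the 8 genes 7 overlap another annotated gene, and since it is not stated which strand column was deposited, reads of overlapping genes could have been counted together.

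The response was lowest for the genes of the longest genomic span in both genotypes. Over 187 genes that span at least 500 kb, the median log2 response was -0.49 in WT and -0.41 in PARP1-KO cells. Over 910 genes of 200 to 500 kb it was -0.16 and -0.27, and over 1720 genes of 100 to 200 kb it was 0.01 and -0.09. Shorter genes had medians between -0.09 and 0.06. Of the 187 longest genes 79.7% (WT) and 85.6% (PARP1-KO) were below 0. The median interaction in this bin was 0.02, that of the 200 to 500 kb genes -0.10 and that of the 100 to 200 kb genes also -0.10, beside -0.03 over all genes tested. With offsets for transcript length and GC content the medians of the longest genes were -0.51 and -0.41, and with DMSO-treated cells as comparator -0.49 and -0.36. Without the 5 libraries of low gene number, 108 of the 120 genes called lower in PARP1-KO cells (90.0%) spanned at least 100 kb, where 20.1% of genes with a mean of at least 20 counts did so. The median span of those 120 genes was 339607.5 bp.

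**Figure D3:**
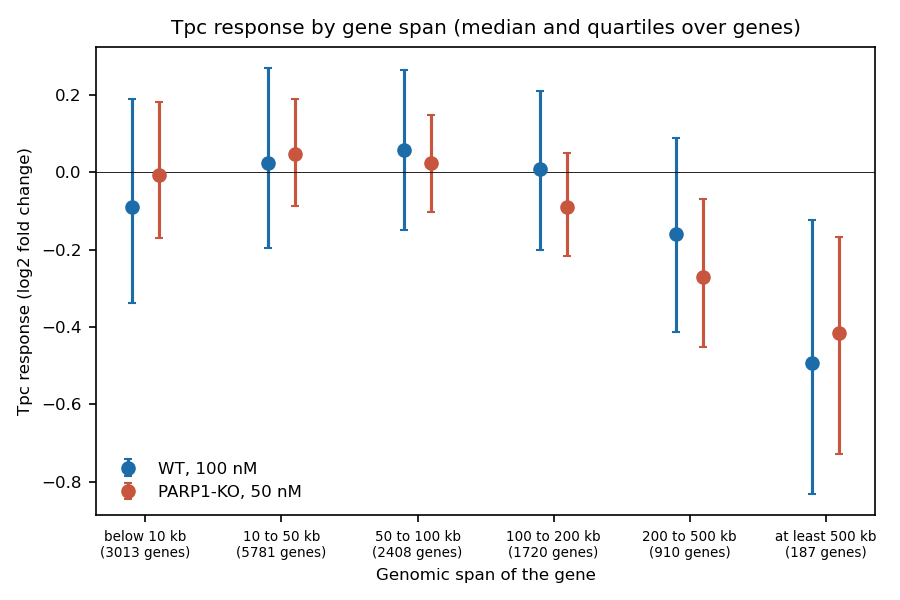
Median log2 response to Tpc (points) with lower and upper quartile over genes (bars) in 6 classes of genomic span, for WT (blue, 100 nM) and PARP1-KO cells (red, 50 nM), genes with a mean of at least 20 counts. In the class of at least 500 kb both medians are negative, at -0.49 and -0.41.

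The genotype difference was measured a second time in 16 other libraries of the same cells and doses, in which OL9-119, a TDP1 inhibitor, was present at 5 μM with and without Tpc. These libraries share none with the first set. The interaction was called for 34 of 24820 genes (0.137%), 7 with a positive (0.0282%; 3 or 4 without PARP1-KO replicate 1, 3 or 4 or WT replicate 1 of the cells with OL9-119 alone or PARP1-KO replicate 1 with both, and 11 without WT replicate 3 with both) and 27 with a negative value (0.109%), and all 25 genes named above had the same sign there. Of the 25, 20 were called again, which is 80.0% of those called without and 58.8% of those called with OL9-119. The 5 that were not called were CXCL10, JUN, JUNB, DUSP1 and HMMR. The interaction of CXCL8 was -4.50 ± 0.18 with OL9-119 and that of TNFAIP3 -2.96 ± 0.17, while ATF3 was at -0.89 ± 0.13 and KIF20A at 1.32 ± 0.18. CXCL1, which missed the threshold in the first set at -3.35 ± 0.74 (adjusted p = 0.050), was called with OL9-119 at -4.79 ± 0.51 (adjusted p = 2e-07, edgeR).

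**Figure D4:**
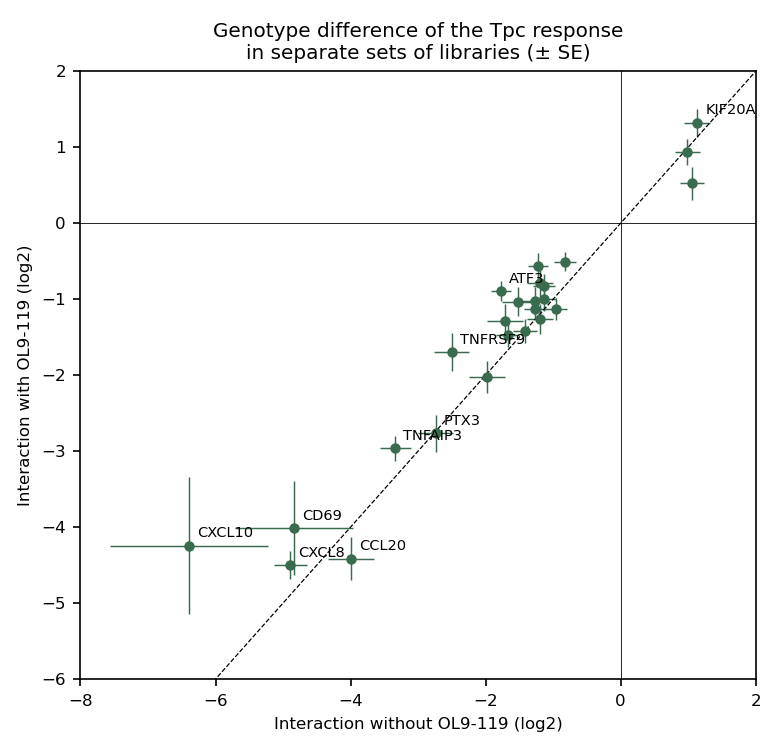
Interaction (PARP1-KO response minus WT response to Tpc, log2) of the 25 called genes without OL9-119 (horizontal axis) and with OL9-119 (vertical axis), with SE bars and the line of equal values dashed. All 25 genes have the same sign on both axes, and 18 lie closer to 0 with OL9-119.

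The PARP1-KO response of the 22 genes with a negative interaction had a median of 0.03 with OL9-119, against 1.29 in WT cells, where 195 genes (0.786%) were called, 119 higher and 76 lower. Without WT replicate 1 with OL9-119 alone these were 75 and 45, without replicate 4 there were 79 higher and without replicate 2 there were 130 lower. No gene was called in PARP1-KO cells with OL9-119 by edgeR, where 1257 genes (5.06%) had an unadjusted p under 0.05, and DESeq2 called 4 genes lower. The 8 long genes called without OL9-119 were again below 0 there, with a median of -0.55. With OL9-119 the longest genes had medians of -0.57 (WT) and -0.47 (PARP1-KO).

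Within the libraries that share the prefix L01 of their names, and within those with L02, all 25 genes kept the sign of their interaction, with a median size of 1.43 and 1.67 against 1.41 over all libraries. The libraries of both prefixes are part of those that chose the 25 genes, so the same sign was largely given and is no separate support. Each of these prefixes also holds only a single untreated and a single Tpc-treated WT library, so the sizes are a description without a test. What the prefix stands for is not stated, and L03 holds no untreated PARP1-KO library. With DMSO-treated cells as comparator all 25 kept their sign and 19 were called. The 6 not called were CDC20, NFKB1, CXCL10, CD69, JUNB and NFKB2. Of the 25 genes 11 overlap another annotated gene and are uncertain in that respect, namely TNFRSF9, PTX3, CXCL10, KIF20A, HMMR, DUSP1, IER3, TNFAIP3, CREB5, SDC4 and JUNB.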

How the data were processed

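Directional paired-end libraries of poly(A) RNA were aligned by the authors to hg38 using STAR 2.7.8, which also counted reads per gene. They deposited these raw counts without normalization, pooling or removal of genes, and do not state the strand column. Each of the 40 columns was assigned to a sample through its name, and 0 belonged to other samples. From these counts the 16 untreated and Tpc-treated libraries were fitted together as 4 groups without covariates, after keeping 25207 genes with at least 10 summed counts of 33982 with a count. The interaction and both responses were tested by quasi-likelihood F-tests in edgeR 4.0.16 (R 4.3.3, TMM, legacy = TRUE), with Benjamini-Hochberg adjustment over all genes and the study's threshold of 0.01. SE is the size of the log2 fold change over the square root of F. All tests are two-sided. GENCODE 44 gave symbols and spans for 57754 of 58395 genes, and RefSeq the promoters.

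Gene members and lists were chosen with earlier results of these data known. The genes named are PARP1, TOP1 and TDP1, the 10 highest and lowest called interactions and the 4 highest and lowest called responses of each genotype with a mean of 50 counts, and up to 4 called members of each list, or otherwise the member with the smallest interaction p. Alternatives, which changed 1 choice at a time, were DESeq2 1.42.0, other normalization and filters, blocks, covariates, offsets, thresholds, comparators and libraries left out. Replicate numbers come from the labels. The deviations of same-numbered libraries correlated from -0.20 to 0.26, so the numbers were not taken as pairs. On simulated counts of this design for 24198 genes, edgeR called 41 of 100 interactions of 1 on the log2 scale, 88 of 100 of 2, and 5 unchanged genes. Smaller differences are therefore often missed at this depth. The changes were set only in genes with a mean of at least 50 counts, and all libraries were drawn around a common profile. Detection among genes with fewer counts was not simulated.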

Additional observations from a re-analysis of the deposited data

Results flagged for a closer look

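The Tpc response differed between the genotypes, by the interaction test of edgeR at an adjusted p under 0.01, for 25 genes. The log2 differences, PARP1-KO minus WT, were -6.39 for CXCL10, -4.89 for CXCL8, -4.84 for CD69, -3.99 for CCL20, -3.34 for TNFAIP3, -2.74 for PTX3, -2.50 for TNFRSF9, -1.98 for TCIM and -1.77 for ATF3. They were -1.71 for RELB, -1.68 for NFKBIA, -1.53 for NFKB1, -1.41 for IER3, -1.27 for PPP1R15A, -1.26 for NFKB2, -1.23 for JUN, -1.19 for JUNB and -1.19 for CREB5. They were -1.14 for ANKRD1, -1.13 for GADD45A, -0.96 for SDC4 and -0.82 for DUSP1, and on the positive side 0.98 for CDC20, 1.05 for HMMR and 1.13 for KIF20A. Genotype and Tpc dose cannot be told apart in these differences.

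Among 212 groups of 4 libraries examined for a single library far from the other three, 17 were found, and chance gives about 1 in 20 groups. Untreated PARP1-KO replicate 1, which has the fewest counts of its group, was the far library for PARP1 (43.8 CPM), TOP1 (523.2 CPM), CCL20 (15.6 CPM), PTX3 (14.6 CPM), JUN (415.6 CPM), JUNB (121.3 CPM) and PTK2 (186.8 CPM). Tpc-treated WT replicate 2, which has the fewest genes of its group, was the far library for PARP1 (756.6 CPM), CXCL1 (21.6 CPM), SDC4 (388.8 CPM), MT-ND3 (930.8 CPM) and NEFL (226.4 CPM). The others were RELB in Tpc-treated WT replicate 1 (53.5 CPM) and in Tpc-treated PARP1-KO replicate 2 (34.9 CPM), EXT1 in untreated PARP1-KO replicate 4 (84.9 CPM), DUSP1 in untreated WT replicate 1 (127.3 CPM) and NEFL in untreated WT replicate 3 (358.1 CPM).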

How the results depend on the processing

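The limits are those of 4 libraries per group, of doses that differ with genotype and of 5 libraries with few genes. All 25 interaction genes kept their sign under every alternative run, and 17 were called in each of the 29 alternative fits. The exceptions were DUSP1, CDC20, CD69, CXCL10 and HMMR, which lost the call with some libraries left out (DUSP1 also with RLE normalization, DUSP1 and CDC20 with legacy = FALSE in edgeR and with the name prefix as a term, CD69 with gene number as a covariate), and NFKB1, NFKB2 and JUNB, which with CDC20, CXCL10 and CD69 lost it against the DMSO-treated cells. Counts of called genes moved far more, and the cause was not tested beyond the number of genes or libraries that each alternative changes.

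Counts below are of genes with a higher value, then with a lower one. DESeq2 gave 16 and 36 for the interaction (35 members of the gene lists, against 20), 364 and 234 for WT and 6 and 38 for PARP1-KO cells. With OL9-119 it gave 11 and 55, 366 and 162, and 4 lower genes in PARP1-KO cells. Without a filter on counts the interaction had 11 and 39, WT cells 323 and 213 and PARP1-KO cells 1 and 30. With OL9-119 there were then 25 higher for the interaction, 247 and 213 in WT and 1 and 20 in PARP1-KO cells, and 85.9% of the genes called lower in WT cells were below 0 in PARP1-KO cells, against 95.6%. With filterByExpr PARP1-KO cells had 2 lower genes. With all 40 libraries in the fit there were 5 higher genes for the interaction, 4 lower in PARP1-KO cells, and with OL9-119 3 higher for the interaction and 72 and 46 in WT cells.

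The labels number the replicates alike in all groups, but the libraries share only the number. Each library correlated best with its own number in 12 of 48 comparisons with another group. With the replicate number as a block there were 5 higher genes for the interaction, and with OL9-119 17 higher for the interaction, 227 and 186 in WT cells and 17 lower in PARP1-KO cells. TOP1 was then at -0.0029. With a block within each genotype there were 8 and 43 for the interaction, 406 and 183 in WT and 1 and 32 in PARP1-KO cells.

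With gene number as a covariate the interaction had 5 higher genes, TOP1 was at -0.073 and TDP1 at 0.12. With offsets for length and GC content it had 8 higher genes, WT cells 251 and 192 (164 lower with OL9-119) and PARP1-KO cells 22 lower. With the name prefix as a term WT cells had 1.2e+02 lower genes with OL9-119 (rounded). Without the 5 libraries of low gene number, which was chosen after seeing the data, there were 14 and 49 for the interaction (41 list members), 267 and 198 in WT and 34 and 120 in PARP1-KO cells. TOP1 was then at -0.016, TDP1 at 0.11 and USP18 at -0.11. Against the DMSO-treated cells 0 genes were lower in PARP1-KO cells, 58.1% of the genes called higher in WT cells were above 0 in PARP1-KO cells, TDP1 was at 0.30 and CD14 at -0.38, none of them called in the interaction.

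At an adjusted p under 0.05 the interaction had 8 higher genes, WT cells 383 and 240, PARP1-KO cells 1 and 23, and with OL9-119 there were 11 higher for the interaction and 312 and 238 in WT cells. With a log2 of at least 1 in size there were 47 and 19 in WT cells and 1 lower in PARP1-KO cells, and with OL9-119 3 higher for the interaction and 47 and 22 in WT cells.

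With each library left out in turn the interaction had 1 to 5 higher and 19 to 29 lower genes, with 1 higher without untreated PARP1-KO replicate 3 or 4 and 5 without untreated WT replicate 1 or 4. WT cells had 77 to 357 and 42 to 234, PARP1-KO cells 0 to 1 and 0 to 20, and the gene lists 15 to 24 called members. The share of genes called higher in WT cells that were above 0 in PARP1-KO cells was 80.0% to 86.6%, and that of lower genes below 0 was 90.6% to 98.6%. Genes of at least 500 kb had medians of -0.54 to -0.43 in WT cells, -0.43 to -0.38 in PARP1-KO cells and -0.093 to 0.051 for the interaction. TOP1 was at -0.079 to 0.089 and TDP1 at -0.24 to 0.18. With OL9-119 the interaction had 3 to 11 and 18 to 27, with 11 higher genes without Tpc-treated WT replicate 3, WT cells 75 to 146 and 45 to 130, and PARP1-KO cells 0 to 26 lower genes, with 26 without Tpc-treated PARP1-KO replicate 3.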

Other observations

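Genes whose symbols mark zinc finger transcription factors (ZNF, ZFP, ZXD, ZKSCAN or ZSCAN) were seen among the genes called higher with Tpc when the 5 libraries of low gene number were left out, and this was noticed after the genes had been listed. They made up 16 of the 34 genes called higher in PARP1-KO cells (47.1%) and 50 of the 267 called higher in WT cells (18.7%), beside 2.61% of all genes tested. The untreated WT cells of this fit were replicates 2 and 4 alone. Examples in PARP1-KO cells were ZNF253 at a log2 response of 0.84, ZNF708 at 0.69 and ZNF101 at 0.65. Many genes of this family are close copies of each other, so their counts are uncertain, and none of the 34 genes was called in the fit of 16 libraries. In the same fit the replication genes CLSPN and CCNE2 were called higher in PARP1-KO cells, at 0.48 and 0.52, and PRIM2, of the same list, lower, at -0.63.

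Of the 120 genes called lower in PARP1-KO cells without those libraries, 5 were members of the G2/M list. That list held 48 of the 25207 genes tested in the fit of 16 libraries. The fall of PLK1 was -0.74 and that of AURKA -0.56 in PARP1-KO cells.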
